A study of Rattus norvegicus with 6 samples.

Results

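The IL-6 family cytokines signal through gp130, a receptor chain encoded by Il6st that nearly all of its receptors share. IL-6 and IL-11 bind their own non-signalling receptor chain (Il6r or Il11ra1) and then pair gp130 with itself, LIF, CNTF, CLCF1 and cardiotrophin-1 pair gp130 with the LIF receptor (Lifr), and oncostatin M pairs gp130 with its own receptor chain (Osmr). The paired chains activate JAK kinases, which phosphorylate the transcription factor STAT3, and STAT3 in turn induces Socs3, an inhibitor that shuts the receptor off. In peripheral nerve the family is known from injury: CNTF is stored by myelinating Schwann cells, LIF and IL-6 are made after axotomy, and STAT3 takes part in the regenerative response of injured neurons.

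The 9 genes described here were those members of the family, with the receptor chains and STAT3, that were listed by name: the ligands Il6, Il11, Lif, Cntf and Clcf1, the receptor chains Il6st, Lifr and Osmr, and Stat3. Each name matched 1 row, so that 9 of the 30957 Ensembl rat genes in the deposited table were used. RNA-seq was performed on 3 crushed sciatic nerves (T) and 3 intact contralateral nerves (C) of adult male Sprague-Dawley rats, with no genetic change named for either group. According to the methods the crush was made with fine forceps and the proximal stump was taken at 4 days postinjury (dpi), whereas the labels give no time point and no age. Both groups came from operated animals, since the intact nerves were those of the opposite side, and no source used here states whether a crushed and an intact nerve with the same number came from the same rat. The replicates are described as biological.

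The counts on genes summed to between 24844371 and 27139360 per nerve, and a floor of 3 counts, taken as the lowest level that can be told from 0, stood at 0.110 to 0.121 normalized CPM (each count divided by its nerve's effective library size). Defining markers of nerve were largely absent. Of 11 Schwann cell markers 4 (Mbp, Mag, Sox10 and S100b) had at most 3 counts in every nerve, the leukocyte gene Ptprc and the fibroblast genes Dcn, Lum and Col1a2 had 0 counts in all nerves, and the proliferation genes Mki67, Top2a, Ccnb1 and Cdk1 together made up 2722 to 3066 normalized CPM. The nerve labels are therefore used below as labels, and a change in the share of a cell type cannot be told apart from a change in RNA per cell in such bulk samples.

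Per unit of gene length, the shared receptor chain was the most abundant of the 9 members, and Il6 and Lifr, which overlapped, were the least. Il6st stood at 75.4 ± 0.179 FPKM in intact nerves (fragments scaled by gene length and library total; ± SD, n = 3 nerves here and below). Stat3 followed with 47.4 ± 1.21 FPKM. The ligand Clcf1, a cardiotrophin-like cytokine, came next with 21.5 ± 1.29 FPKM, and Cntf, the ciliary neurotrophic factor, with 7.49 ± 1.76 FPKM. Lif, at 4.29 ± 0.702 FPKM, and Osmr, at 4.05 ± 0.248 FPKM, overlapped in their ranges and could not be ordered. Il11 was lower by a further step, at 0.422 ± 0.0598 FPKM. In crushed nerves the order was the same except that Osmr, at 5.47 ± 0.300 FPKM, came before Lif, at 4.599 ± 0.835 FPKM, again with overlapping ranges. All other neighbours down to Il11 were separated in both groups.

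**Figure D1:**
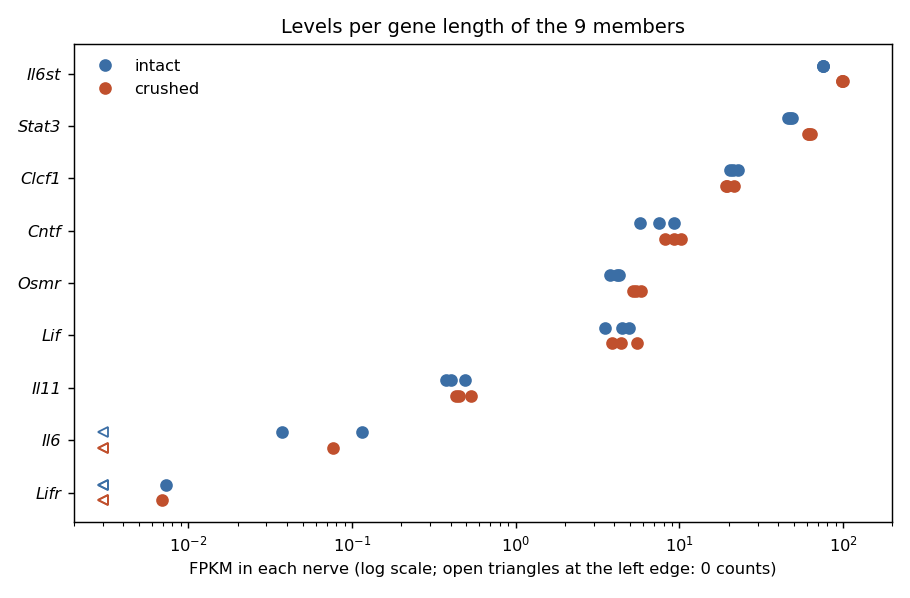
Levels of the 9 members in each nerve, in FPKM on a log axis, with intact nerves in blue and crushed nerves in red; open triangles at the left edge are nerves with 0 counts. Il6st and Stat3 lie at the top and are higher in all crushed nerves, whereas Il6 and Lifr lie at or near 0 in both groups.

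The remaining members, Il6 and Lifr, were at or under the floor in every nerve. Il6, the founding cytokine of the family (chromosome 4, 3043231 to 3047807), was counted 1, 0 and 3 times in intact nerves 1, 2 and 3, while crushed nerves 1, 2 and 3 gave 0, 0 and 2 counts. Lifr, the receptor chain on which LIF, CNTF, CLCF1 and cardiotrophin-1 depend (chromosome 2, 56426367 to 56489415), was counted 1, 0 and 0 times in intact nerves, while crushed nerves gave 0, 1 and 0 counts. No difference was detectable at this depth, and no fold change is given for either gene. For Lifr, 3 counts correspond to 0.0205 to 0.0224 FPKM, and in the same nerves Osmr stood at 169 to 282 times and Il6st at 3356 to 4780 times that level. For Il6, 3 counts correspond to 0.106 to 0.116 FPKM. The ligands Lif, Cntf and Clcf1 were thus measured at 3.52 to 22.9 FPKM in nerves with at most 1 count of the receptor chain they share.

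Crushed nerves were then compared with intact nerves, the comparison for which the samples were collected. Il6st, Osmr and Stat3 rose in crushed nerves by similar factors of 1.29 to 1.33, while none of the ligands changed past the test. With edgeR's quasi-likelihood test, 3 of the 7 members that passed the expression filter had an adjusted p (Benjamini-Hochberg) under 0.05, against 3.12% of the 12393 genes tested, and all of them were higher in crushed nerves, against 1.47% of genes tested. They were also the members whose groups did not overlap, 3 of 7, against 23.0% of genes tested in either direction and 10.8% in this direction. At the limits of the study's methods (absolute log2 fold change above 1 and p under 0.001, read as unadjusted) 0 members were called, against 0.282% of genes tested.

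Il6st, on chromosome 2 from 44289393 to 44314944 (ENSRNOG00000013963, Rnor_6.0 according to the submitters' processing notes), had 237.1, 236.6 and 234.8 normalized CPM in intact nerves 1, 2 and 3. It had 303.3, 303.8 and 307.1 normalized CPM in crushed nerves 1, 2 and 3. The crushed nerves all lay above the intact nerves, by far more than the spread of either group. The log2 fold change was 0.37 (standard error, SE, 0.0355, 95% interval 0.29 to 0.45, adjusted p = 0.000200 in edgeR's test), a 1.29-fold rise with an interval of 1.22 to 1.36.

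Osmr, the chain that makes gp130 into an oncostatin M receptor, lies on the same chromosome from 56110777 to 56151531 (ENSRNOG00000033192). Intact nerves 1, 2 and 3 gave 358, 361 and 309 counts of Osmr, and crushed nerves 1, 2 and 3 gave 517, 462 and 445, or 13.4 ± 0.865 and 17.9 ± 0.965 normalized CPM. Again every crushed nerve was above every intact nerve. The log2 fold change of Osmr was 0.41 (SE 0.0831, 95% interval 0.23 to 0.60, adjusted p = 0.0231 in edgeR's test), or 1.33-fold. The adjusted p of Osmr in the same edgeR test was between 0.0584 and 0.118 on leaving out intact nerve 2, intact nerve 3 or any crushed nerve, and 0.0199 without intact nerve 1.

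Stat3, on chromosome 10 from 88790408 to 88842233 (ENSRNOG00000019742), had 217.4, 211.1 and 205.1 normalized CPM in intact nerves 1, 2 and 3. In crushed nerves 1, 2 and 3 it had 278.2, 271.4 and 268.7. Its groups were separated by a wide gap as well. The log2 fold change was 0.37 (SE 0.0395, 95% interval 0.28 to 0.46, adjusted p = 0.000421 in edgeR's test), or 1.29-fold. For each of the 3 genes an exact two-sided permutation test of the nerves gave p = 0.1, and a smaller p cannot be reached with 3 nerves in each group. By p, Il6st ranked 41, Stat3 53 and Osmr 243 among the 12393 genes tested, whereas by the size of the change they ranked 918, 915 and 720.

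Proportions among the genes were compared as ratios within each nerve. The ratio of Stat3 to Il6st in FPKM was 0.628 ± 0.0152 in intact and 0.629 ± 0.0149 in crushed nerves (exact two-sided permutation test, p = 0.7). The ratio of Osmr to Il6st was 0.0538 ± 0.00319 and 0.0555 ± 0.00312 (exact permutation test, p = 0.5). For both ratios the groups overlapped. The ratio of the ligand Clcf1 to Il6st was 0.285 ± 0.0168 in intact and 0.204 ± 0.0110 in crushed nerves, and every crushed nerve was below every intact nerve (exact permutation test, p = 0.1). The ratio of Il6r, the IL-6-binding chain, to Il6st was 0.0878 ± 0.000812 and 0.0625 ± 0.00270, with no overlap of the groups (exact permutation test, p = 0.1). That of Il11ra1, the IL-11-binding chain, to Il6st was 0.245 ± 0.00972 in intact and 0.199 ± 0.00930 in crushed nerves, also without overlap (exact permutation test, p = 0.1). With 6 such ratios tested, Socs3 to Stat3 included, none passes 0.05, before or after adjustment, because 3 nerves against 3 cannot go below 0.1. Il6st, the divisor in the ratios of Clcf1, Il6r and Il11ra1, itself rose from 75.4 ± 0.179 FPKM in intact to 98.5 ± 0.703 in crushed nerves. Clcf1, Il6r and Il11ra1 were not called by edgeR, with log2 fold changes of -0.11, -0.12 and 0.07. Their lower ratios therefore largely restate the rise of Il6st and are not separate results.

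**Figure D2:**
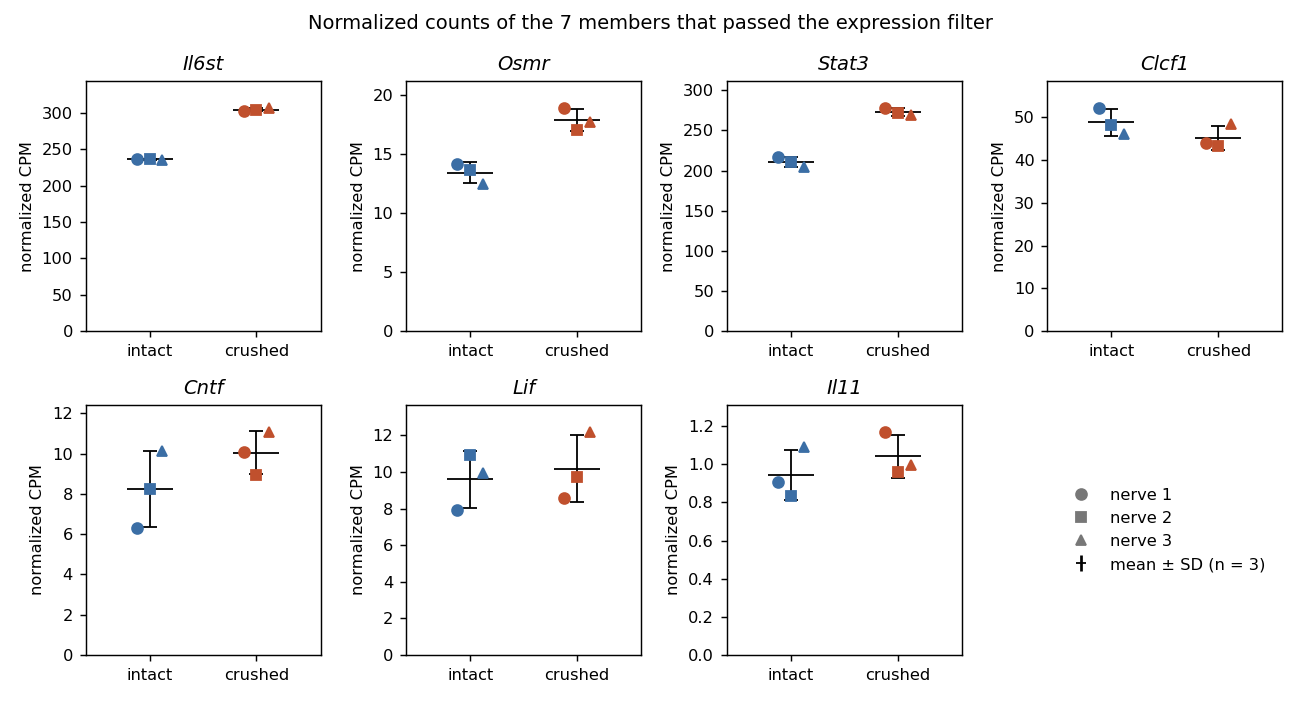
Normalized CPM (vertical axes, from 0) of the 7 members that passed the expression filter, 1 panel per gene, with 1 symbol per nerve (circle, square and triangle for nerves 1, 2 and 3) and the mean ± SD of the 3 nerves of a group in black. The crushed nerves lie above the intact nerves for Il6st, Osmr and Stat3, and the groups overlap for Clcf1, Cntf, Lif and Il11.

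None of the 4 ligands that passed the filter was called by edgeR, 0 of them had an unadjusted p under 0.05, and DESeq2 called 0 of the 3 for which it gave an adjusted p. Their median log2 fold change was 0.11, beside 0.37 for the receptor chains with Stat3 and -0.0017 for all genes tested. Without 1 nerve the median of the ligands lay between 0.045 (without intact nerve 1) and 0.19 (without intact nerve 3), and it was 0.054 without crushed nerve 3. Clcf1, on chromosome 1 from 219468675 to 219472654, had 52.2, 48.1 and 46.1 normalized CPM in intact nerves 1, 2 and 3, whereas crushed nerves 1, 2 and 3 had 43.9, 43.3 and 48.3. The groups overlapped, and Clcf1 was the only ligand tested with a negative log2 fold change, -0.11 (SE 0.0656, 95% interval -0.26 to 0.03, adjusted p = 0.440 in edgeR's test). A rise as large as that of Il6st lies outside this interval.

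For the other ligands the intervals were wider and included such a rise. Cntf, on chromosome 1 from 229599009 to 229601032, was counted 160, 218 and 251 times in intact nerves 1, 2 and 3, and crushed nerves 1, 2 and 3 gave 275, 243 and 278 counts. Its log2 fold change was 0.28 (95% interval -0.06 to 0.63, adjusted p = 0.398 in edgeR's test), with intact nerve 3 inside the range of the crushed nerves. For Cntf it was 0.13 without intact nerve 1 and 0.46 without intact nerve 3. Lif, on chromosome 14 from 84482674 to 84500642, was counted 200, 289 and 246 times in intact nerves 1, 2 and 3, and crushed nerves 1, 2 and 3 gave 235, 264 and 306 counts. The spread within each group exceeded the difference between them, with a log2 fold change of 0.08 (95% interval -0.25 to 0.41, adjusted p = 0.836 in edgeR's test), and the sign turned to negative on leaving out either intact nerve 1 or crushed nerve 3. Il11, on chromosome 1 from 72635267 to 72643255, is a cytokine known from fibrosis and had only 22 to 27 counts in intact and 25 to 32 in crushed nerves, with overlap. Its log2 fold change of 0.15 had the widest interval, -0.36 to 0.65 (adjusted p = 0.801 in edgeR's test). For Il11 it was 0.26 without intact nerve 3, 0.066 without intact nerve 2 and 0.052 without crushed nerve 1.

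To show what lies upstream of the members at both ends of the range, the 250 bases before the RefSeq transcription start (GRCr8 assembly) are given for Osmr and Stat3, which rose, and for Il6, which was hardly detected. A window was found for 7 of the 9 members; Lif and Clcf1 had none, and that of Il6st is not shown because its listed start lies 11360 bases inside the gene. Both strands were searched for a STAT site (TTCNNNGAA), an NF-κB site (GGGA and TTTCC with any 1 base between them), an AP-1 site (TGANTCA) and a TATA box (TATAAA), and capitals mark the matches. Osmr is at chr2:57688562-57688811, Stat3 at chr10:86363360-86363609 and Il6 at chr4:5894576-5894825, each on the minus strand and written 5′ to 3′.
Osmr: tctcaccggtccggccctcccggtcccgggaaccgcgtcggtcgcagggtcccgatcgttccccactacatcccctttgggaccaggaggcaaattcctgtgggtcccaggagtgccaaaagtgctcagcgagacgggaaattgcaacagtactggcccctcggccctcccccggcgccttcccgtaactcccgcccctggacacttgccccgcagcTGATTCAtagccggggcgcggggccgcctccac
Stat3: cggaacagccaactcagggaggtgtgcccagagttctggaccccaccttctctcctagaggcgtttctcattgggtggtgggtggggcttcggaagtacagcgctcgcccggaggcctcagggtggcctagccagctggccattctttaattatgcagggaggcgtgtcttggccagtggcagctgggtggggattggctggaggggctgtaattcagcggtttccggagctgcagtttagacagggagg
Il6: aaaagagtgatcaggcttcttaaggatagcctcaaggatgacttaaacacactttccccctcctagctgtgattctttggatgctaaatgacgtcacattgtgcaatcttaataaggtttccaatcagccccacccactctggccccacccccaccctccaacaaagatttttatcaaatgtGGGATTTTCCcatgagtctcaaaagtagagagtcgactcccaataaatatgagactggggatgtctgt

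The window of Osmr held 1 AP-1 match, TGATTCA, that begins 33 bases before the start. AP-1 matches with other letters, TGAGTCA, were present 142 bases before the start of Il11 and 72 before that of Cntf. In all 3 of 7 members had a match, against 6.34% of the 33469 windows of this length. The window of Il6 held the NF-κB match, 68 bases before the start, against 0.314% of windows, in a gene with at most 3 counts in any nerve. None of the 7 windows held the STAT letters (7.67% of windows) or the TATA letters (12.9%), and no match overlapped another. The window of Stat3 held none of the 4 motifs. These matches describe letters and were not tested as sites.

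The other ligands of the family were mostly not detected. Ctf2, Il27 and Il31 had 0 counts in all 6 nerves, and Osm, the ligand of the receptor chain that rose, was counted 2, 1 and 0 times in the intact nerves and 0 times in each crushed nerve. Ctf1, which encodes cardiotrophin-1, had 159 to 227 counts per nerve and a log2 fold change of -0.04 (adjusted p = 0.903 in edgeR's test). Ebi3, which encodes a subunit shared by IL-27 and IL-35, was counted 0, 0 and 1 times in intact nerves 1, 2 and 3, whereas crushed nerves 1, 2 and 3 gave 8, 13 and 13 counts. Its counts were few but all crushed nerves were above all intact nerves, with 34 counts against 1, a ratio of 32.7 with an exact counting interval of 5.48 to 1329. Ebi3 was too low for the expression filter. Without the filter, 1.05% of 17425 genes were higher in crushed nerves at an adjusted p under 0.05 in edgeR's test. For Ebi3 the adjusted p was 0.0119 in this test, and 0.0561 with the replicate number as a block. It was also above 0.05 without intact nerve 2 (0.0671), crushed nerve 2 (0.0545) or crushed nerve 3 (0.107), all in edgeR's test.

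Of the other receptor chains, Cntfr and Il31ra had 0 counts in all nerves. Il6r had 30.6 ± 0.321 normalized CPM in intact and 28.2 ± 1.19 in crushed nerves. All 3 crushed nerves lay below the intact nerves, but the log2 fold change of Il6r was small, -0.12 (95% interval -0.25 to 0.01, adjusted p = 0.358 in edgeR's test). Il11ra1 had 31.8 ± 1.39 and 33.3 ± 1.501 normalized CPM (log2 fold change 0.07, adjusted p = 0.643 in edgeR's test). Il27ra had 44 to 90 counts per nerve and a log2 fold change of 0.31 (adjusted p = 0.495 in edgeR's test).

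The kinases and the other STATs had positive log2 fold changes in 7 of the 8 genes tested, with a median of 0.11, and Stat2 rose. In 5 of the 8 every crushed nerve was above every intact nerve, against the 10.8% of genes tested given above. Stat2, a transcription factor of type I interferon signalling, went from 59.0 ± 1.78 to 70.2 ± 4.28 normalized CPM, or 0.25 on the log2 scale (adjusted p = 0.0394 in edgeR's test, 0.0534 with the replicate number as a block). Its adjusted p in edgeR's test also passed above 0.05, to between 0.0523 and 0.190, without any 1 nerve other than crushed nerve 3.

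The kinases nearest to gp130 were not called. Jak1 had 330.7 to 353.2 normalized CPM in intact and 372.6 to 381.4 in crushed nerves, without overlap, and a log2 fold change of 0.14 (95% interval 0.05 to 0.22, adjusted p = 0.0963 in edgeR's test). Jak3, the kinase of the common gamma chain, had one of 0.23 (adjusted p = 0.0749 in edgeR's test, and 0.0336 in DESeq2). In edgeR's test its adjusted p was 0.0116 without intact nerve 1 and between 0.117 and 0.276 without any other nerve. The log2 fold changes of Jak2 and Tyk2 were 0.09 and 0.01. Stat5a, Stat5b and Stat6 were not called, and Stat4 was not analysed here. Of the adaptors of the MAPK branch, 0 of 5 tested were called by edgeR (Ptpn11, Grb2, Sos1, Gab1 and Shc1), 1 had an unadjusted p under 0.05, and DESeq2 called none.

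**Figure D3:**
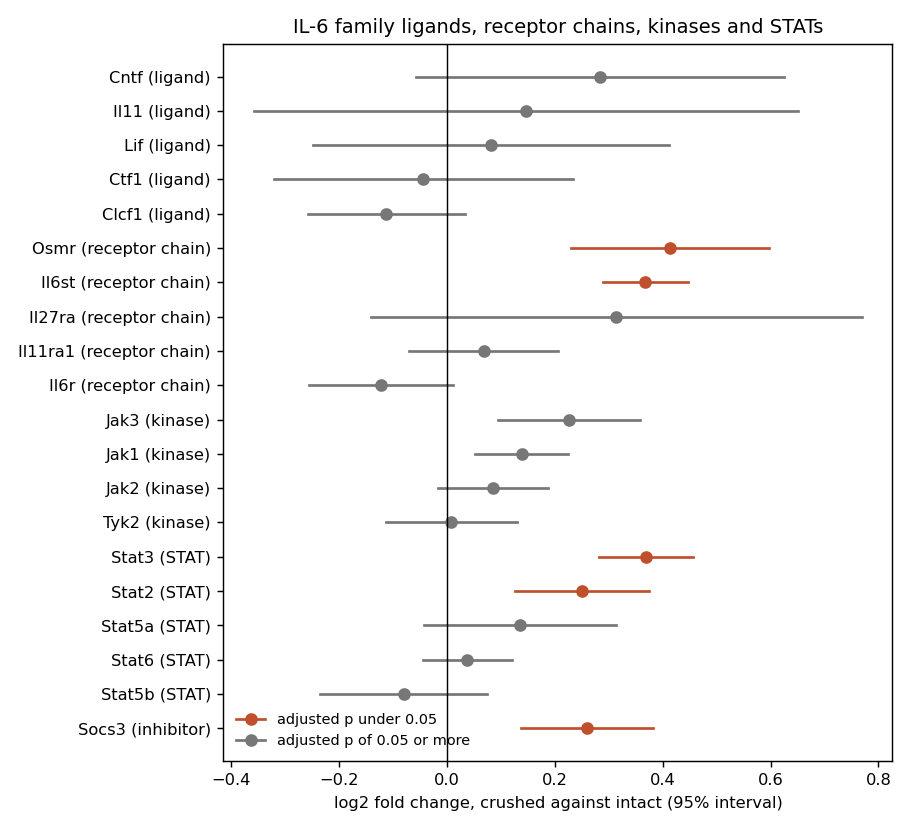
Log2 fold change, crushed against intact, with its 95% interval (horizontal axis) for the members and the other ligands, receptor chains, kinases and STATs that passed the filter, and for Socs3. Red marks an adjusted p under 0.05: Osmr, Il6st, Stat3, Stat2 and Socs3 lie to the right of 0, and all 5 ligands have intervals that include 0.

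Of the inhibitors and of the proteases that shed receptors, 16 were tested and 1, Socs3, was called. Of all genes tested, 3.12% were called in either direction. Socs3 went from 84.2 ± 5.97 to 100.8 ± 2.35 normalized CPM (log2 fold change 0.26, standard error 0.0554, adjusted p = 0.0311 in edgeR's test), with no overlap of the groups. The call on Socs3 was lost, with an adjusted p between 0.0732 and 0.140 in edgeR's test, without any 1 nerve except intact nerve 1. The ratio of Socs3 to Stat3 in FPKM was 2.04 ± 0.0881 in intact and 1.90 ± 0.0494 in crushed nerves, and the groups overlapped (exact two-sided permutation test, p = 0.2). The median log2 fold change of the 16 genes was 0.01.

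Of 24 genes listed as induced by STAT3, 15 were tested, and 3 of them were called higher and 0 lower by edgeR, against 1.47% of all genes tested called higher. The median log2 fold change of the 15 was -0.03, with 6 positive and 9 negative values. Bcl3, an atypical IκB protein that binds NF-κB subunits, went from 5.56 ± 1.22 to 12.5 ± 1.54 normalized CPM, a log2 fold change of 1.16 (SE 0.153, adjusted p = 0.00182 in edgeR's test), and met the limits of the study's methods, though not without intact nerve 3, where it was 0.996, nor with limma on log2(FPKM + 1), where it was 0.97. Junb, a subunit of AP-1, had 67.5, 67.2 and 61.2 normalized CPM in intact nerves and 111.9, 113.7 and 102.9 in crushed nerves, far apart. Its log2 fold change was 0.75 (SE 0.0566, adjusted p = 3.73e-05 in edgeR's test).

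Cebpd, a C/EBP factor of the acute phase response, was counted 125, 80 and 79 times in the intact nerves and 156, 179 and 166 times in the crushed ones. The log2 fold change of Cebpd was 0.76 (adjusted p = 0.0448 in edgeR's test, and 0.0804 with the replicate number as a block). In edgeR's test without 1 nerve its adjusted p was 0.00256 without intact nerve 1 and between 0.0897 and 0.152 without any other. The 12 other targets tested, among them Myc, Ccnd1, Timp1, Vegfa, Hif1a and Bcl6, were not called, with log2 fold changes from -0.13 for Fos to 0.12 for Bcl6 and, apart from these, -0.95 for Atf3. The acute phase genes A2m, Fga and Lbp had 0 counts in all nerves, and Mcl1 was not analysed here. Across the 48 other genes of the pathway tested, 5 were called higher (Stat2, Socs3, Bcl3, Junb and Cebpd) and 0 lower by edgeR. The share called higher over all genes tested was 1.47%. Of the 48 genes, 9 had an unadjusted p under 0.05 in edgeR's test, and their median log2 fold change was 0.0099 over all 48.

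**Figure D4:**
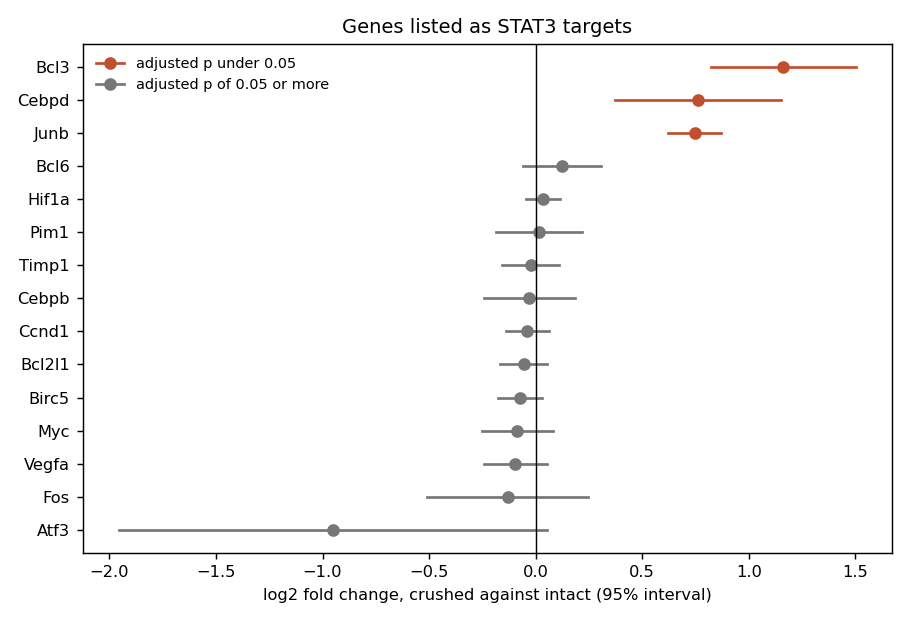
Log2 fold change, crushed against intact, with its 95% interval (horizontal axis) for the 15 genes listed as STAT3 targets that passed the filter. Bcl3, Cebpd and Junb, in red, have an adjusted p under 0.05 and lie between 0.75 and 1.16, and 11 of the others lie between -0.13 and 0.12, with Atf3 apart at -0.95.

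Over the 6 nerves, the genes whose log2 normalized CPM followed Il6st most closely were Irf1 (Pearson's r = 0.999), Nfkbia (r = 0.999) and Gbp2 (r = 0.999). Those nearest to Stat3 were 1 row of Metazoa_SRP (r = 0.999), a repeated RNA gene whose reads the counting could split between copies, Tapbp (r = 0.998) and Samhd1 (r = 0.997), and those nearest to Osmr were Bcl3 (r = 0.992), Mmp9 (r = 0.992) and AC110474.1 (r = 0.989). These values are a description over 6 points that fall into 2 groups, share their libraries and were picked as the highest among the genes tested.

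Markers of cell types moved with the groups in a few genes. In the Schwann cell list, whose summed level was 70.6 to 75.0 normalized CPM in intact and 66.5 to 67.4 in crushed nerves, 1 of 6 genes tested, Erbb3, fell (log2 fold change -0.59, adjusted p = 0.0222 in edgeR's test). Of the fibroblast list, with 76.8 to 82.7 and 73.6 to 80.3 normalized CPM, 2 of 4 genes tested fell, Col1a1 (log2 fold change -0.69, adjusted p = 0.000662 in edgeR's test) and Col3a1 (-1.76, adjusted p = 0.0268). Col3a1 had only 21 to 23 counts in intact and 3 to 10 in crushed nerves. Pdgfra went the other way without a call, from 46.6 ± 3.33 to 53.3 ± 2.78 normalized CPM (log2 fold change 0.19, adjusted p = 0.166 in edgeR's test). The log2 fold change of Fbln1 was -0.18, also without a call. Of all genes tested, 3.12% were called in either direction. No gene of the macrophage list was called (3.94 to 5.49 and 4.21 to 6.004 normalized CPM), and Ptprc, Cd163 and Adgre1 had 0 counts. The proliferation list summed to 2851 to 3066 normalized CPM in intact and 2722 to 2855 in crushed nerves, the endothelial list to 4.62 to 5.49 and 3.77 to 5.08, and the T cell, neutrophil, adipocyte and skeletal muscle lists to at most 0.958 in any nerve, with no gene of these lists or of the macrophage list called by edgeR or DESeq2 and 3 with an unadjusted p under 0.05 in edgeR. The part of these cell types in the rise of Il6st, Osmr and Stat3 was not tested.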

How the data were processed

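RNA-seq of 3 crushed and 3 intact sciatic nerves was used. The authors deposited 1 table with a raw count per Ensembl gene and nerve and FPKM values that the authors computed from those counts. HISAT2, StringTie (1.3.0) and Rnor_6.0 are named in the submitters' processing notes, while the counting program and the annotation release are not given in the sources used here. The methods describe TRIzol extraction and RNase R, an enzyme that digests linear RNA, and the labels a column kit and no RNase R, and such a digestion could change the level of mRNAs. Sample titles linked all 12 value columns to nerves, with 0 other columns present.

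Crushed and intact nerves were compared over all genes in R 4.3.3 by the quasi-likelihood test of edgeR (4.0.16; limma 3.58.1), using TMM factors and the package's filter on low counts, without a block for the replicate number, and p-values were adjusted with the Benjamini-Hochberg method over the 12393 genes tested. Genes under the filter were taken from the same test on the 17425 genes with at least 1 count. Standard errors came from the test statistic, and exact permutation tests from scipy 1.17.1. Ratios and levels between genes used FPKM. Counting intervals and floors cover counting error only, and p-values measure only the spread between these nerves.

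The members and the lists of other pathway genes, STAT3 targets and markers were chosen with earlier results of these data known. All members were named, with the other ligands and receptor chains that had counts, every pathway gene called, and the 3 genes most correlated with each called member. Genes described as not called or at 0 counts (JAKs, other STATs, adaptors, STAT3 targets and markers) were added after their values were seen, to account for their lists. A few listed genes are not reported here and were left out of the lists and their counts, though not of the test. The alternatives were the replicate block, DESeq2 (1.42.0), upper-quartile factors, no filter, limma on log2(FPKM + 0.1) or log2(FPKM + 1), and each nerve left out. The test was checked on simulated counts. Replicates differed by more than sampling noise (chi-square per degree of freedom 3.27 to 11.8), so each nerve was kept.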

Additional observations from a re-analysis of the deposited data

How the results depend on the processing

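Il6st and Stat3 kept their direction and an adjusted p under 0.05 in all 12 alternatives, and Cntf, Clcf1 and Il11 kept their direction without a call, in those that gave an adjusted p. With the replicate number as a block (paired analysis) the log2 fold changes were 0.37 for Il6st, 0.37 for Stat3 and 0.41 for Osmr, with 3 members called; of the pathway genes named, the block ended the calls on Stat2, Cebpd and Ebi3 and no other. Same-numbered nerves did not deviate together (correlations -0.0148, 0.00586 and 0.0756), so the number is not known to pair rats. Osmr was no longer called with limma on log2(FPKM + 0.1) (log2 fold change 0.42). With each nerve left out in turn, its log2 fold change was between 0.37 and 0.46 and that of Il6st between 0.36 and 0.38; Lif ranged from -0.067 to 0.19 (-0.036 without intact nerve 1) and Ctf1 from -0.16 to 0.042 (0.026 without intact nerve 1), both changing sign. The members called higher numbered 2 or 3 in these fits, the other pathway genes called higher 2 to 6 (5 with all nerves; 3 with the replicate block and 3 with limma on either FPKM scale) and those called lower 0 to 1 (Atf3, without crushed nerve 1), and the median of the receptor chains with Stat3 lay between 0.37 and 0.40, that of the ligands between 0.045 and 0.19. Limma on FPKM also ended the calls on Stat2 and Cebpd. What causes the shifts was not tested. DESeq2 gave no adjusted p for Il11 or Ebi3, and no alternative was run for Il6 or Lifr, which stayed at or under 3 counts. For Il11, Lif and Cntf the depth and spread allow a rise like that of Il6st to be missed.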

Other observations

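Atf3, a transcription factor of injured neurons that is also listed as a STAT3 target, was counted 168, 159 and 183 times in intact nerves 1, 2 and 3, whereas crushed nerves 1, 2 and 3 gave 198, 46 and 33 counts, so that crushed nerve 1 lay with the intact nerves. The log2 fold change was -0.95 over all nerves (adjusted p = 0.341 from edgeR's test) and -2.14 without crushed nerve 1 (adjusted p = 0.000311 from edgeR's test), and Atf3 was singled out after its values were seen. In the same crushed nerve 1, Il6st, Stat3 and Osmr stood at 303.3, 278.2 and 18.9 normalized CPM, above all intact nerves.

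The ratio of Stat3 to Il6st in FPKM was 0.644, 0.627 and 0.614 in intact nerves 1, 2 and 3, whereas crushed nerves 1, 2 and 3 had ratios of 0.645, 0.628 and 0.615. The values of same-numbered nerves lay closer together than those of any nerves of one group. This was noticed after the values were seen, and over all genes same-numbered nerves did not deviate together.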
